A study of Mus musculus with 8 samples.

Results

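The regions described here were listed as enriched for the histone mark H3K27me3 in at least 2 of 3 livers of one treatment, with no listed enrichment in the 3 livers of the other. They were chosen by their cover in the 6 libraries of 600 to 1100 bp fragments alone, so the rule does not show that the mark was absent from the other treatment. The islands (enriched stretches) of the 6 lists were merged wherever they overlapped or touched, which gave 14513 union regions on the autosomes. A region was taken as present in a liver when islands covered 50% or more of its length, and as absent when they covered 0%. This left 693 regions, of which 525 were recurrent in vehicle livers only (3.62% of all autosomal union regions) and 168 in TCPOBOP livers only (1.16%). The choice used the same comparison, so these counts are descriptions and were not tested.

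All livers came from wild-type male mice of the outbred CD-1 (ICR) stock, aged 7 weeks, and H3K27me3 was profiled by chromatin immunoprecipitation and sequencing (ChIP-seq). The vehicle mice were injected with 1% DMSO in corn oil and the TCPOBOP mice with TCPOBOP at 3 mg/kg, and livers were taken 3 h later. Chromatin was prepared from individual livers, so the 3 libraries of a treatment were separate animals. The 600 to 1100 bp fragments were digested to 500 bp before sequencing. The ChIP sample of replicate 1 of each treatment also gave a second library, from its fragments longer than 1100 bp, digested to 200 bp. Whole liver was used, so a mark in few cells and a weak mark in many cells cannot be told apart in these lists.

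H3K27me3 is written by Polycomb repressive complex 2, whose catalytic subunit is EZH2 or EZH1, and it marks genes held silent, often over broad domains. TCPOBOP is a synthetic agonist of the constitutive androstane receptor CAR (Nr1i3), a nuclear receptor that turns on genes of drug metabolism in hepatocytes, Cyp2b10 above all. The design asks whether the mark differed between the 2 treatments 3 h after the injection.

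The 6 lists differed in size within each treatment. They held 6295 to 14748 islands, which covered 174 to 340 Mb. Median island width was 26.8, 15.2 and 12.8 kb in vehicle replicates 1, 2 and 3 and 14.4, 22.8 and 24.4 kb in TCPOBOP replicates 1, 2 and 3. The lowest score listed was 84.6, 48.3 and 41 for vehicle and 44.2, 71 and 77.7 for TCPOBOP. The lists thus ended at different values of the authors' score, which is relative to each library's background. The lists hold no read counts, and the depth of the libraries is unknown.

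Most of the regions were present in 2 livers and not in the third. Of the 525 vehicle-only regions, 37 (7.05%) were present in all 3 vehicle livers. Vehicle replicates 2 and 3 shared 247 (47%), replicates 1 and 2 shared 186 (35.4%), and replicates 1 and 3 shared 55 (10.5%). Vehicle replicate 2, whose list has the most islands, thus held 470 of the 525 at 50% or more, against 278 in replicate 1 and 339 in replicate 3. Of the 168 TCPOBOP-only regions, 7 (4.17%) were present in all 3 TCPOBOP livers. TCPOBOP replicates 1 and 2 shared 96 (57.1%), replicates 2 and 3 shared 39 (23.2%), and replicates 1 and 3 shared 26 (15.5%). TCPOBOP replicate 3, the shortest list, held 72 of the 168, against 129 in replicate 1 and 142 in replicate 2. The third liver was mostly at 0% and not just short of the limit. In vehicle replicates 1, 2 and 3, 247, 40 and 152 of the vehicle-only regions were at 0%, and 0, 15 and 34 were covered in part. Of the TCPOBOP-only regions, 9 were partly covered in TCPOBOP replicate 1 and 0 in replicates 2 and 3.

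**Figure D1:**
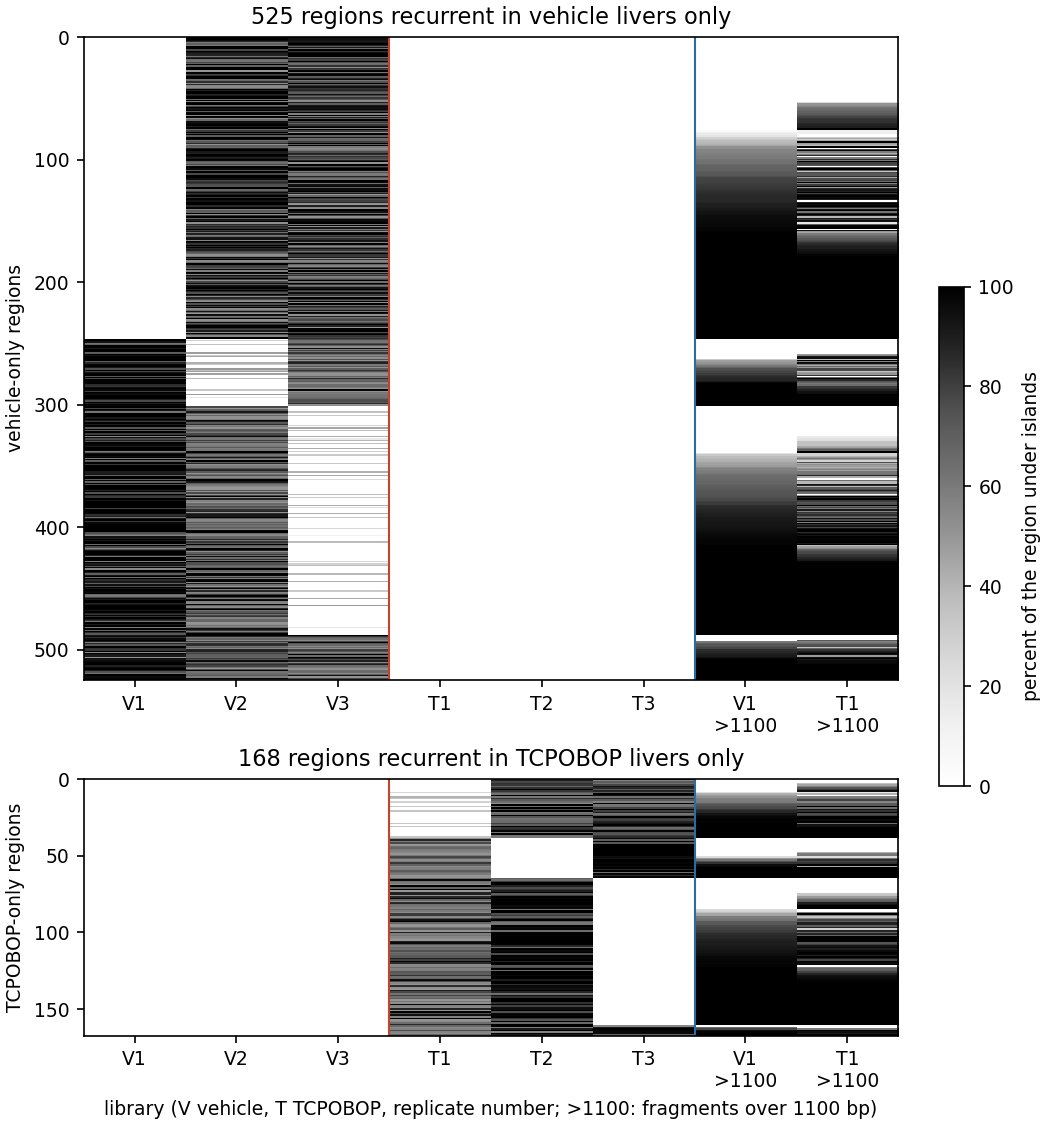
Percent of each region under islands (grey scale, 0 to 100%) for the 525 vehicle-only regions (top, 1 row per region) and the 168 TCPOBOP-only regions (bottom) in the 8 libraries, with vertical lines between vehicle, TCPOBOP and the 2 libraries of fragments over 1100 bp. The 3 columns of the other treatment are empty because the rule required it, while both columns of fragments over 1100 bp, which the rule did not use, are dark for most regions of either kind.

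The limit of 50% divided a continuous range. Several vehicle-only regions had a second-highest vehicle cover of exactly 50%, and the first of these by position were 2 regions of chromosome 1 (70738401 to 70756800, and 173110401 to 173132000) and 1 of chromosome 3 (108554001 to 108578800). The nearest regions outside had 49.4, 49.4 and 49.3%, on chromosomes 5 (134512401 to 134546400), 14 (67348401 to 67380000) and 2 (164671601 to 164700800). On the TCPOBOP side the nearest inside were also at 50%, and the nearest outside were at 48.9, 48.9 and 48.3%.

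The same rule was applied to the other 9 ways of dividing the 6 livers 3 against 3, each of which mixes vehicle and TCPOBOP livers on both sides. The treatments gave 693 regions over both directions, and the other divisions gave 561 to 1011. Of these, 5 gave more than the treatments and 4 gave fewer. The imbalance of the treatments, 525 against 168, was 3.12 to 1. In the other divisions the larger side exceeded the smaller by 1.04 to 8.07 times, and 4 of the 9 were more unequal than the treatments.

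By sets of 3 livers, the vehicle set came after 4 of the 18 mixed sets, and the TCPOBOP set stood above 3 of them. The highest count, 865, belonged to vehicle replicates 2 and 3 with TCPOBOP replicate 1, the 3 lists with the narrowest islands. The counts of 759 and 675 that followed belonged to vehicle replicates 1 and 2 with TCPOBOP replicate 1, and to vehicle replicate 2 with TCPOBOP replicates 1 and 2. Each of the 6 highest sets, the vehicle set included, contained vehicle replicate 2. TCPOBOP replicate 3, the list with the fewest islands, was in 5 of the 6 lowest. The counts thus moved with which lists were in a set, and the part of list size in the vehicle and TCPOBOP counts was not tested beyond the settings given further on.

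**Figure D2:**
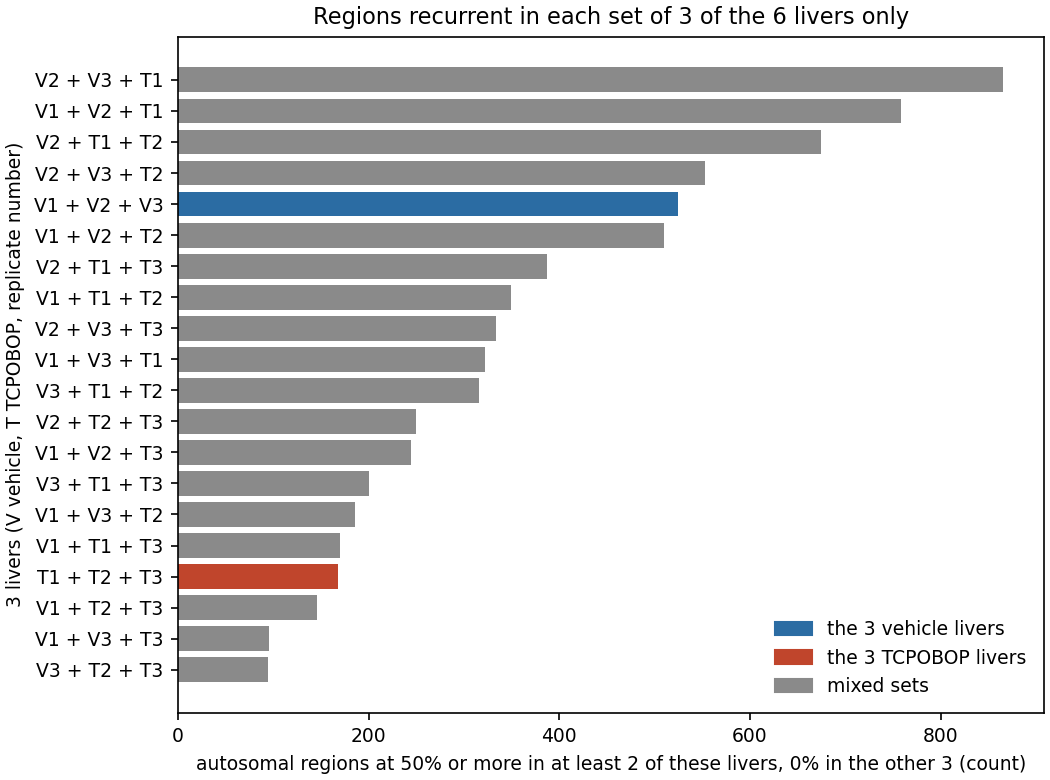
Number of autosomal regions at 50% or more in at least 2 livers of a set of 3 and at 0% in the other 3 livers (horizontal axis), for each of the 20 sets of 3 livers (V vehicle, T TCPOBOP, with the replicate number). The vehicle set (525) and the TCPOBOP set (168) lie inside the range of the mixed sets, 94 to 865.

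The regions found in exactly 2 livers and at 0% in the other 4 showed which livers shared them. Of the 15 pairs of livers, the 3 vehicle pairs held 439 such regions, from 40 to 247 per pair. The 3 TCPOBOP pairs held 152, from 26 to 96 per pair. The 9 pairs of 1 vehicle and 1 TCPOBOP liver held 909, from 19 to 300 per pair. The mean was 50.7 per TCPOBOP pair and 101 per mixed pair, and the mean of the vehicle pairs was above both. The pair with the most was a mixed one, vehicle replicate 2 with TCPOBOP replicate 1, at 300. Both of these lists are among the longest by number of islands, and vehicle replicate 3 with TCPOBOP replicate 3, the lists with the least covered length, shared the fewest, 19. Sharing by exactly 2 livers was therefore found across treatments as well as within them.

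**Figure D3:**
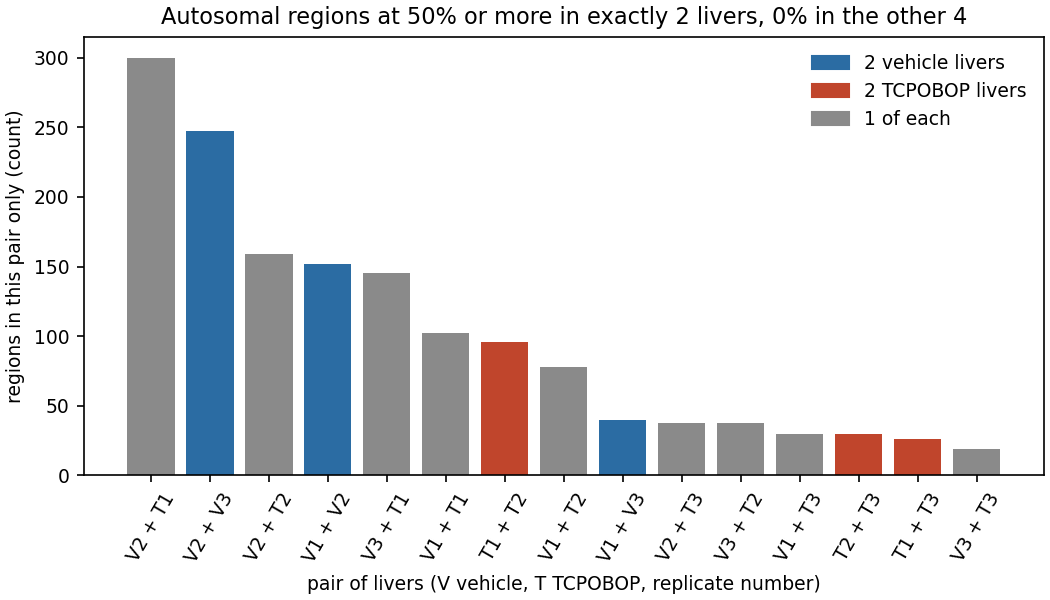
Number of autosomal regions at 50% or more in exactly 2 livers and at 0% in the other 4 (vertical axis) for the 15 pairs of livers, coloured by whether both livers had vehicle, both TCPOBOP or 1 of each. Mixed pairs run over the whole range, from 19 to 300, and pairs of the same treatment lie between 26 and 247.

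Vehicle-only regions had a median width of 18.4 kb (quartiles 13.2 and 24.4 kb, range 4.8 to 51.6 kb) and covered 10.3 Mb in all. TCPOBOP-only regions had a median of 23.6 kb (quartiles 19.6 and 29.2 kb, range 12 to 58.8 kb) and covered 4.2 Mb. The TCPOBOP-only regions found with a common score minimum or with lists of equal covered length, both described further on, were wider, with medians of 30.2 and 30.4 kb. The regions shared by 1 vehicle and 1 TCPOBOP liver had a median of 19.2 kb, between the 2. The 841 autosomal regions present in all 6 livers had a median of 59.6 kb, and all autosomal union regions one of 25.6 kb. Width and the rule are linked, since a wide union region has more room for an island of any list.

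The islands over these regions ranked low in the lists they came from. A score percentile is the share of a list's islands with a score at or below that of the region's best island, and scores were ranked within 1 list only. In vehicle replicates 1, 2 and 3 the median percentile over vehicle-only regions was 19.5 (n = 278), 31 (n = 470) and 31.9 (n = 339). In TCPOBOP replicates 1, 2 and 3 the median over TCPOBOP-only regions was 26.6 (n = 129), 20 (n = 142) and 22 (n = 72). Percentiles of 25 or lower held 38.1 to 65.1% of the regions in the 3 vehicle lists and 45 to 62.7% in the 3 TCPOBOP lists. Percentiles above 75 held 0, 3 and 5 regions in the vehicle lists and 0, 2 and 2 in the TCPOBOP lists. Scored per unit of length, the medians were percentiles 28.5, 27.8 and 30.4 for vehicle and 17.8, 23.2 and 25.3 for TCPOBOP. By that measure, percentiles above 75 held 18, 39 and 31 regions in the vehicle lists and 2, 3 and 1 in the TCPOBOP lists. Islands over the regions shared by 1 vehicle and 1 TCPOBOP liver stood at medians of 17.8 to 30.3 in the 6 lists, a range much like that of the one-treatment regions.

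**Figure D4:**
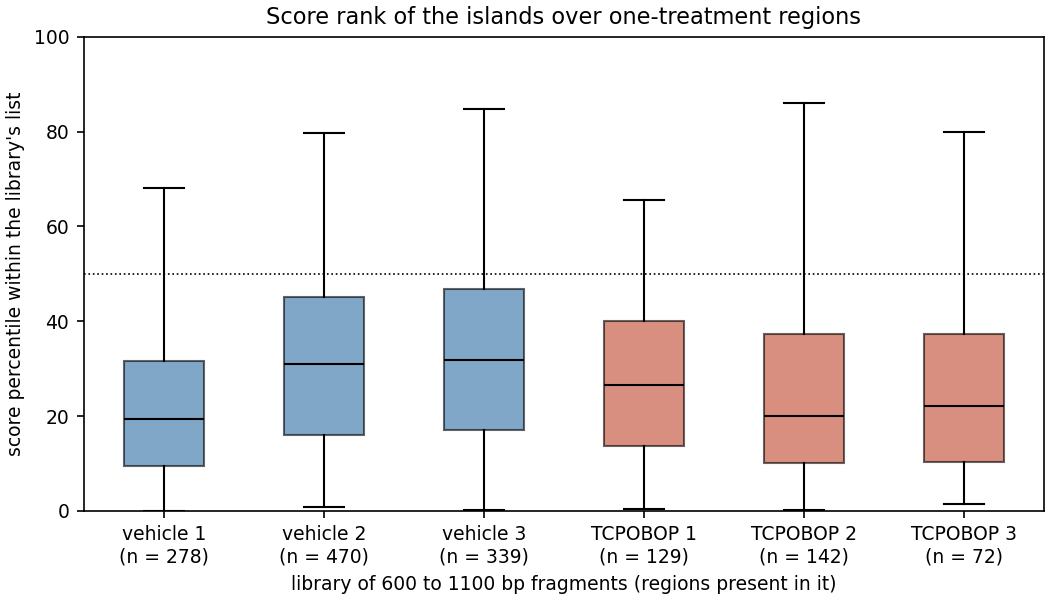
Percentile of the authors' island score within each library's own list (vertical axis) for the one-treatment regions present in that library, with the box at the quartiles, the line at the median and whiskers to the lowest and highest region. All 6 medians lie below the 50th percentile (dotted), between 19.5 and 31.9.

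Distances to the nearest island of the other treatment varied widely. The nearest TCPOBOP island was a median of 26.8 kb from a vehicle-only region (quartiles 9.2 and 96.8 kb), and for 142 of the 525 (27%) it lay within 10 kb. The nearest vehicle island was a median of 22.4 kb from a TCPOBOP-only region (quartiles 7.6 and 61.7 kb), and for 48 of the 168 (28.6%) it lay within 10 kb. For 23 and 7 regions it lay within 2400 bp, the distance named in the file names as the gap that islands of a list may span. More isolated regions existed too, with 128 vehicle-only and 23 TCPOBOP-only regions over 100 kb from any island of the other treatment. These distances were not measured for other classes of region, so no closeness particular to the one-treatment regions is read from them. The median distance to a region present in all 6 livers was 1113 kb for vehicle-only and 1071 kb for TCPOBOP-only regions, against 929 kb for regions shared by 1 liver of each treatment and 870 kb for all regions not present in all 6.

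The 2 libraries of fragments over 1100 bp were not used by the rule. They come from the ChIP samples of replicate 1 of each treatment, and with 1 library per treatment no test was possible. Their lists were longer, with 17577 islands over 654 Mb for vehicle and 22077 over 676 Mb for TCPOBOP. Of the 525 vehicle-only regions, 362 (69%, exact 95% interval 64.8 to 72.9%) were at 50% or more in the vehicle list. In the TCPOBOP list, 367 (69.9%, 65.8 to 73.8%) were at 50% or more. The regions that no TCPOBOP liver held among the 600 to 1100 bp libraries were thus covered about as often in the TCPOBOP library of longer fragments as in the vehicle one. Mean cover was 64.5% in the vehicle list and 66.1% in the TCPOBOP list, a difference of -1.68 percentage points. Over all autosomal union regions the difference was -1.38 points, and over the regions of 1 vehicle and 1 TCPOBOP liver it was -3.50 points. For the vehicle-only regions it had the other sign, 0.368 points, when both lists were cut to the same covered length.

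Of the 168 TCPOBOP-only regions, 117 (69.6%, 62.1 to 76.5%) were at 50% or more in the vehicle list of fragments over 1100 bp and 128 (76.2%, 69 to 82.4%) in the TCPOBOP list. Mean cover was 65.5 and 70.4%, a difference of -4.90 points (vehicle minus TCPOBOP), against -3.50 points for the regions of 1 vehicle and 1 TCPOBOP liver. The difference had the other sign, 1.64 points, for the TCPOBOP-only regions found with the 6 lists cut to equal covered length, and it was -1.32 points without TCPOBOP replicate 2. Intervals cover counting error only and treat regions as independent. Over all autosomal union regions, 74.3% were at 50% or more in the vehicle list and 76.4% in the TCPOBOP list. Over the regions of 1 vehicle and 1 TCPOBOP liver the shares were 69.3 and 75.2%. The shares of one-treatment regions thus lay under those of all regions in both lists, although all regions are wider at the median. In the list of their own treatment, the share of all regions lay above the interval of the vehicle-only regions and inside that of the TCPOBOP-only regions. The 37 regions present in all 3 vehicle livers were more often covered, 32 of them in the vehicle list (86.5%, 71.2 to 95.5%) and 31 in the TCPOBOP list (83.8%, 68 to 93.8%). Of the 7 present in all 3 TCPOBOP livers, 6 were at 50% or more in the vehicle list and 5 in the TCPOBOP list.

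Region by region, both lists of longer fragments held 331 of the vehicle-only regions (63%) and 112 of the TCPOBOP-only regions (66.7%) at 50% or more. Of the 525 vehicle-only regions, 9 were at 50% or more in the vehicle list and 0% in the TCPOBOP list, and 30 were the opposite. Of the 168 TCPOBOP-only regions, 13 were at 50% or more in the TCPOBOP list and 0% in the vehicle list, and 2 were the opposite. Over all 14513 regions, 168 were held by the vehicle list alone and 507 by the TCPOBOP list alone in this sense. Among the 909 regions of 1 vehicle and 1 TCPOBOP liver, the counts were 7 and 52. Neither list held any part of 94 vehicle-only (17.9%) and 22 TCPOBOP-only regions (13.1%), against 13.2% of all regions. Both lists show no island for 490 and 491 kb around the HoxB cluster on chromosome 11, where the 600 to 1100 bp libraries have cover, so islands may be missing from these 2 lists, and a region at 0% in them may still carry the mark.

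Libraries of 1 ChIP sample could also be set side by side. Of the 247 vehicle-only regions at 0% in the 600 to 1100 bp list of vehicle replicate 1, 157 (63.6%) were at 50% or more in its list of longer fragments. Of the 278 at 50% or more in that first list, 205 (73.7%) were at 50% or more in the second. The corresponding shares of TCPOBOP-only regions in TCPOBOP replicate 1 and its list of longer fragments were 23 of 30 (76.7%) and 97 of 129 (75.2%). The other treatment's list of longer fragments held 168 of the 247 (68%) and 19 of the 30 (63.3%) at 50% or more. Over all autosomal union regions the shares were 74.3% in the vehicle and 76.4% in the TCPOBOP list. An empty stretch in a 600 to 1100 bp list was thus often covered among longer fragments, in the list of either treatment.

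**Figure D5:**
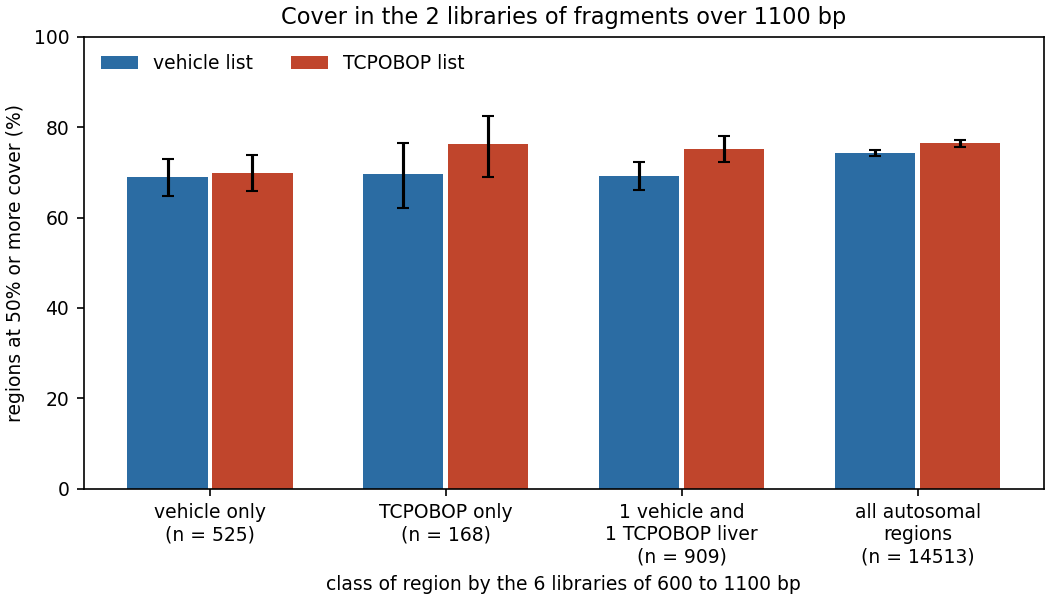
Percent of regions at 50% or more cover (vertical axis) in the vehicle (blue) and TCPOBOP (red) libraries of fragments over 1100 bp, by class of region, with exact 95% intervals for counting error. The vehicle-only regions stand at 69 and 69.9%, the TCPOBOP-only regions at 69.6 and 76.2%, and all autosomal regions at 74.3 and 76.4%.

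Among the vehicle-only regions, the one with the highest score rank spanned 34 kb on chromosome 13 (78233601 to 78267600). Islands covered 0, 100 and 57.6% of it in vehicle replicates 1, 2 and 3, at percentiles 79.8 and 72.5 in the last 2 lists, and 0 and 71.8% of it in the vehicle and TCPOBOP lists of longer fragments. The vehicle liver that had this library of longer fragments was the one without the region in both libraries. It was followed by 20.8 kb on chromosome 3 (98714401 to 98735200), covered to 0, 92.3 and 94.2% in the vehicle livers and 0% in both lists of longer fragments. The third, 16.4 kb on chromosome 8 (47015601 to 47032000), was covered to 0, 100 and 85.4% in the vehicle livers and 87.8% in both lists of longer fragments. In each of these 3 regions vehicle replicate 1 was as empty as the TCPOBOP livers.

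The next by score rank were present in every vehicle liver. A 12.4 kb region on chromosome 11 (32115601 to 32128000) was covered to 83.9, 61.3 and 71%, at percentiles 68.1, 40.9 and 75.5, with the nearest TCPOBOP island 10.4 kb away and 0% in both lists of longer fragments. A 22.4 kb region on chromosome 14 (51854001 to 51876400) was covered to 100, 67.9 and 64.3%, with the nearest TCPOBOP island 149 kb away. It was covered to 78.6% in the vehicle and 35.7% in the TCPOBOP list of longer fragments. Both were thus present in all 3 vehicle livers, and only the second was seen among longer fragments.

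The 5 longest regions present in all 3 vehicle livers were 28.4 to 33.2 kb wide, and all 5 were covered to 73.5% or more in both lists of longer fragments. The region of 31.6 kb on chromosome 8 (17519601 to 17551200), covered to 63.3, 65.8 and 53.2% in the vehicle livers, was at 100% in both. That of 28.8 kb on chromosome 3 (103470801 to 103499600), at 100, 50 and 52.8%, was also at 100% in both, and a TCPOBOP island lay 1.2 kb from it. That of 28.4 kb on chromosome 4 (127845201 to 127873600), at 100, 74.6 and 50.7%, was at 100% in both as well. The other 2, on chromosomes 9 (20330801 to 20364000) and 19 (12482801 to 12516000), stood at 85.5 and 83.1% and at 73.5 and 74.7% in the vehicle and TCPOBOP lists. Their absence from the 3 TCPOBOP libraries of 600 to 1100 bp was thus not seen in the TCPOBOP library of longer fragments.

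The 3 longest vehicle-only regions were present in 2 livers each. The longest, 51.6 kb on chromosome 12 (80918801 to 80970400), was covered to 74.4, 62.8 and 0% in the vehicle livers and to 0 and 34.1% in the vehicle and TCPOBOP lists of longer fragments. The second, 50 kb on chromosome 6 (86237201 to 86287200), was covered to 75.2, 65.6 and 0% in the vehicle livers and to 96 and 94.4% in the 2 lists. The third was 46.4 kb on chromosome 14 (35683201 to 35729600), covered to 79.3, 0 and 51.7% in the vehicle livers and to 100 and 94.8% in the 2 lists. All 3 were at 0% in 1 vehicle liver.

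The 9 vehicle-only regions held by the vehicle list of longer fragments alone included 36.8 kb on chromosome 6 (12433201 to 12470000), at 71.7, 0 and 68.5% in the vehicle livers and 84.8% in that list. A region of 20.8 kb on chromosome 16 (8764001 to 8784800) was at 0, 100 and 61.5% and 98.1%. The others named by length were 13.2 to 34.4 kb wide, on chromosomes 3 (69460401 to 69494800), 1 (162799601 to 162824800) and 8 (46014001 to 46027200), at 52.3, 66.7 and 66.7% in that list. Each of these 5 was below 50% in 1 of the 3 vehicle livers, and the nearest TCPOBOP island lay 52.4 to 214 kb away.

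Among the TCPOBOP-only regions, the highest score rank belonged to 34 kb on chromosome 2 (24515601 to 24549600). It was covered to 0, 100 and 71.8% in TCPOBOP replicates 1, 2 and 3, at percentiles 86.1 and 79.9 in the last 2 lists. In the lists of longer fragments it stood at 0% in vehicle and 82.4% in TCPOBOP. That TCPOBOP value came from the ChIP sample of replicate 1, whose 600 to 1100 bp list did not hold the region. The next, 57.6 kb on chromosome 1 (81288801 to 81346400), was also among the 3 longest and was covered to 33.3, 84 and 85.4% in the TCPOBOP livers. It stood at 58.3 and 66% in the vehicle and TCPOBOP lists of longer fragments. The remaining 3 by score rank, on chromosomes 4 (108642001 to 108675600), 2 (156118001 to 156151600) and 15 (56160401 to 56184800), were each at 0% in 1 TCPOBOP liver.

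Of the 7 regions present in all 3 TCPOBOP livers, the 5 longest were 24.4 to 30 kb wide. The most isolated was 24.4 kb on chromosome 6 (94391601 to 94416000), covered to 75.4, 98.4 and 98.4% in the TCPOBOP livers, with the nearest vehicle island 603 kb away. The vehicle library of longer fragments nevertheless covered 95.1% of it, and the TCPOBOP one 100%. The region of 29.2 kb on chromosome 11 (26688801 to 26718000), at 53.4, 98.6 and 95.9%, stood at 100 and 90.4% in the 2 lists. The region of 30 kb on chromosome 7 (88257201 to 88287200), at 53.3, 58.7 and 92%, stood at 65.3% in the vehicle list and 0% in the TCPOBOP list. The other 2, on chromosome 1 (156127601 to 156153200 and 194952801 to 194981600), were at 98.4 and 95.3% and at 77.8 and 59.7%. All 5 were thus covered to 65.3% or more in the vehicle library of longer fragments.

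The longest TCPOBOP-only region was 58.8 kb on chromosome 13 (44195601 to 44254400), and the third longest lay on chromosome 9 (101806801 to 101859200, 52.4 kb). They were covered to 54.4, 69.4 and 0% and to 54.2, 94.7 and 0% in the TCPOBOP livers. The second of them was at 100% in both lists of longer fragments, and the first at 59.2% in vehicle and 34% in TCPOBOP. The 13 regions held by the TCPOBOP list of longer fragments alone included 35.2 kb on chromosome 9 (13986001 to 14021200), at 51.1, 0 and 100% in the TCPOBOP livers and 59.1% in that list. They also included 31.2 kb on chromosome 5 (149883601 to 149914800), at 0, 67.9 and 93.6% and 57.7%. A region of 26 kb on chromosome 1 (63623601 to 63649600), at 61.5, 95.4 and 0% and 100%, lay 3.2 kb from a vehicle island.

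Every one of the 19 autosomes held more vehicle-only than TCPOBOP-only regions. All chromosomes were read from the same lists, so they are not separate observations of the excess, 525 against 168 in total. With each list cut to the same covered length, the totals were 151 vehicle-only and 153 TCPOBOP-only. The values by chromosome are for the uncut lists. The vehicle-only share of a chromosome's union regions ran from 2.24% on chromosome 7 to 5.31% on chromosome 10, and the TCPOBOP-only share from 0.461% on chromosome 12 to 2.32% on chromosome 13. Chromosome 13 had the most even counts, 24 against 17, and chromosome 12 the most uneven, 23 against 3.

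Genes of drug metabolism, the class that CAR activates, were looked at in 6 windows of 1 to 2 Mb. Their edges are approximate mm9 positions from general knowledge and do not follow an annotation. Of the union regions in them, 8 (7.77%) were vehicle-only, against 3.62% of all regions, and 0 were TCPOBOP-only, against 1.16%. With so few regions these counts are given as values, and no test was made. They lay in the windows of the Cyp2 cluster on chromosome 7 (4 of 20 regions), of Gstm, which encodes glutathione S-transferases (2 of 23), and of the P450 clusters Cyp2c (1 of 16) and Cyp3a (1 of 18). The windows of Cyp4a, fatty acid hydroxylases (5 regions), and Ugt1a, glucuronosyltransferases (21 regions), held none of either direction. With 1 liver left out the 8 became 2 without vehicle replicate 3, 4 without vehicle replicate 2 and 13 without TCPOBOP replicate 2, and 1 or 2 TCPOBOP-only regions lay there when a vehicle liver was left out. With each list cut to the same covered length, 3 vehicle-only regions lay in the windows, and they overlapped 0 of the 8.

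The Cyp2 window held the only one of these 8 regions that was present in all 3 vehicle livers, 21.6 kb from 26627201 to 26648800. It was covered to 96.3, 87 and 83.3% in the vehicle livers, at percentiles 25.7, 49.1 and 54.9, and to 0% in the TCPOBOP livers and in both lists of longer fragments. A TCPOBOP island lay 15.6 kb away. The next region to the right, 10 kb from 26653601 to 26663600, was covered to 0, 100 and 52% in the vehicle livers. Beyond it, a 32.4 kb region (26682801 to 26715200) over the approximate position of Cyp2b10 had islands in all 6 livers and was not chosen. Each vehicle liver had more of it under islands (74.1, 61.7, 59.3% for replicates 1, 2, 3) than any TCPOBOP liver (50.6, 30.9, 29.6%). Among longer fragments, the vehicle list held 23.5% of it and the TCPOBOP list 0%. This difference was not tested, and the region was picked for its position. The order did not hold in the other regions of this window with islands in all 6 livers. The region from 26445201 to 26502000, for example, stood at 73.9, 72.5 and 50% in vehicle and 77.5, 70.4 and 70.4% in TCPOBOP livers. How often regions elsewhere had this order was not counted. The other 2 vehicle-only regions in this window spanned 13.6 and 10 kb. They ran from 26390401 to 26404000, at 100, 0 and 55.9%, and from 27177201 to 27187200, at 0, 100 and 84%. The first of these was covered to 97.1 and 67.6% by longer fragments in vehicle and TCPOBOP, the second to 0% in both.

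The regions are named by window, and whether they overlap a gene of that window was not examined. The region in the Cyp2c window was 13.6 kb on chromosome 19 (39356401 to 39370000), at 0, 100 and 52.9% in the vehicle livers and percentiles 9.41 and 3.52. The region in the Cyp3a window was 23.2 kb on chromosome 5 (147448401 to 147471600), at 98.3, 46.6 and 51.7%, and was covered to 81 and 50% by longer fragments. The 2 regions in the Gstm window, on chromosome 3 (107694801 to 107722800 and 108554001 to 108578800), were covered to 54.3 and 60% and to 71% in both by longer fragments. Thus 4 of the 8 regions were at 50% or more in the TCPOBOP library of longer fragments and 4 were at 0% in both.

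The windows of the 4 Hox clusters, homeobox genes that pattern the body axis and are known Polycomb targets, had 13 union regions and 0 of either direction. At the shares of all regions, 3.62 and 1.16%, 13 regions would hold fewer than 1 of each direction, and nothing is read from the 0. The olfactory receptor windows on chromosomes 2, 7, 9 and 19 had 20 union regions, of which 1, the 33.2 kb region on chromosome 19 given above, was vehicle-only. The window around Alb, the serum albumin gene of hepatocytes, had a single region, at its proximal edge. This 11.6 kb region on chromosome 5 (90800401 to 90812000) was vehicle-only, at 0, 96.6 and 100% in the vehicle livers, percentiles 21.7 and 15.3, and 0 and 69% in the vehicle and TCPOBOP lists of longer fragments.

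The excess of vehicle-only regions was absent under 1 way of cutting the lists and present under another. With each list cut, from its highest score down, to the 174 Mb of the shortest list, 151 regions were vehicle-only and 153 TCPOBOP-only. Those 151 overlapped 15 of the original 525 (2.86%), and the 153 overlapped 11 of the 168 (6.55%). With only islands scoring at least 84.6, the highest of the 6 lists' lowest scores, 384 were vehicle-only and 86 TCPOBOP-only, and they overlapped 93 of the 525 (17.7%) and 18 of the 168 (10.7%). The treatments' total was then 304 at equal length, against 257 to 768 in the other divisions, 7 of which gave more. With the score minimum it was 470, against 319 to 1198, and 6 gave more. Both cuts thus replaced most of the regions of either direction with others. The counts also hung on single livers. Vehicle-only regions numbered 104 without vehicle replicate 2, 235 without vehicle replicate 3, 879 without TCPOBOP replicate 2 and 1245 without TCPOBOP replicate 1. TCPOBOP-only regions numbered 36, 48 and 111 without TCPOBOP replicates 2, 1 and 3, and 295 and 343 without vehicle replicates 1 and 2.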

How the data were processed

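H3K27me3 ChIP-seq islands from 8 mouse liver libraries were used as the authors deposited them, 1 list per library. Bowtie2 2.3.2, SICER 1.1 and the build mm9 are named in the submitters' processing notes without their roles. The deposited score of an island is the authors' own value, relative to that library's background. It was used to rank islands within a list, also for the cut to equal covered length. Across lists it was used only as the score minimum, although the lists' backgrounds may differ. Both cuts are alternatives. Whether an input was used, and which tool made the islands, are not stated in these sources. File names give a 400 bp window, and all island ends fell on that grid. Coordinates are mm9, 1-based.

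Islands were merged and cover was computed on the 400 bp grid (Python 3.11.15, numpy 2.4.6, scipy 1.17.1, matplotlib 3.10.9). The rule was tested on simulated lists. Exact (Clopper-Pearson) 95% intervals cover counting error only, and neighbouring regions are not independent. No test across regions was made, because the rule used the same 6 lists. The rule and the gene windows were chosen with earlier results of these data known. Regions were named by score rank, by width (among all and among those in 3 of 3 livers), by cover in their own treatment's longer-fragment list alone, by nearness to the 50% limit, or by lying in a drug-metabolism window. The region in the Alb window, those named in the Cyp2 window that were not chosen, and those of the dense stretches were picked outside these rules. The alternatives are in the closing section. Reads, an mm9 genome and an mm9 annotation were not used here.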

Additional observations from a re-analysis of the deposited data

How the results depend on the processing

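Against 525 vehicle-only and 168 TCPOBOP-only regions, counts were 140 and 35 with presence at 80%, 37 and 7 in all 3 of 3 livers, 1865 and 684 in 10 kb bins, and 123 and 76 with both libraries of a ChIP sample joined. Any cover gave 804 vehicle-only regions, equal covered length 151, and the common score minimum 86 TCPOBOP-only regions. Allowing up to 10% cover as absence, merging islands up to 2400 bp apart and adding chromosome X kept both counts within 1.5 times. Fewer regions in a stricter rule follow from its construction, and for the other settings the cause was not tested. Leaving out 1 liver gave 104 to 1245 vehicle-only regions (lowest without vehicle replicate 2, highest without TCPOBOP replicate 1; 235 and 879 without vehicle replicate 3 and TCPOBOP replicate 2). It gave 36 to 343 TCPOBOP-only regions (lowest without TCPOBOP replicate 2, highest without vehicle replicate 2; 48, 111 and 295 without TCPOBOP replicates 1 and 3 and vehicle replicate 1).

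In the lists of fragments over 1100 bp, the 69% of vehicle-only regions in the vehicle list was 86.5% in 3 of 3 livers, 76.6% with the score minimum, 81.5% at equal length and 73% in bins, and 68.4 to 74.9% with 1 liver left out. The 69.9% in the TCPOBOP list was 83.8% in 3 of 3, 82.8% at equal length, 74.4% in bins and 70 to 75.2% with 1 left out. For TCPOBOP-only regions, the 69.6% in the vehicle list was 85.7% in 3 of 3, 85% at equal length and 58.3 to 76.1% with 1 left out. The 76.2% in the TCPOBOP list was 85.7% with presence at 80%, 86% with the score minimum, 83.7% at equal length and 58.3 to 81.6% with 1 left out. The difference of -1.68 points for vehicle-only regions changed sign with the score minimum (0.814), at equal length (0.612), with the longer-fragment lists at equal length (0.368) and without vehicle replicates 2 (0.802) and 3 (0.304), over a range of -3.57 to 0.802 with 1 left out. That of -4.90 for TCPOBOP-only regions became 1.64 at equal length and ran from -5.36 to -1.32 with 1 left out. The median width of TCPOBOP-only regions, 23.6 kb, was 30.2 kb with the score minimum and 30.4 kb at equal length. Requiring 10 kb free of islands of the other treatment, chosen after seeing the data, left 388 and 120 regions. Total reads are unknown, so depth could not be matched. No paired analysis was possible because the results come from no test.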

Other observations

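The densest stretch of vehicle-only regions lay on chromosome 16, where 5 of the 11 union regions within 2 Mb were vehicle-only (85541601 to 87358400). Of these 5 regions, 4 were at 0% in vehicle replicate 1. In the lists of fragments over 1100 bp, 3 of the 5 were covered to 72.4% or more in both, and the other 2 to 33.3% or less. On chromosome 3, 4 of 7 union regions within 2 Mb were vehicle-only, between 69430001 and 69668800. One of these 4, 6.0 kb from 69449601 to 69455600, was covered to 93.3, 100 and 100% in the vehicle livers and to 0% in both lists of longer fragments. Its 3 neighbours were at 0% in vehicle replicate 1 and at 69 to 89.5% in vehicle replicate 2 and 52.3 to 100% in vehicle replicate 3. The densest TCPOBOP-only stretch, on chromosome 6 (93067601 to 94928800), held 4 of 18 union regions. It included the 24.4 kb region present in all 3 TCPOBOP livers, and the other 3 were at 0% in 1 TCPOBOP liver each. These stretches were chosen after their counts were seen.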
